A study of Mus musculus with 61 samples.

Results

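Eomes, Tbx21, Sp8, Cdhr1, Doc2g and Col24a1 are 6 genes known from the neurons of the olfactory bulb, and their intensities were followed here through the whole adult mouse brain. The olfactory bulb lies at the rostral tip of the brain and receives the axons of the olfactory receptor neurons in its glomeruli. Its output neurons, the mitral and tufted cells, are glutamatergic and carry odor signals to the olfactory cortex, whereas its granule and periglomerular interneurons are inhibitory and are renewed in the adult by neuroblasts that migrate in from the wall of the lateral ventricle. Tbx21 and Eomes are T-box transcription factors of mitral and tufted cells, Sp8 is a zinc finger transcription factor of bulb interneurons and their neuroblasts, Cdhr1 is a cadherin-related membrane protein of mitral and tufted cells, Doc2g is a protein of the double C2 domain family and Col24a1 encodes a fibrillar collagen chain. Eomes is also a marker of the unipolar brush cells, excitatory interneurons of the cerebellar granule layer.

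The members were the probes of these 6 genes, named through the RefSeq accession that the array files give for each probe, out of 16358 genes so named on the array. For a gene with several probes, the brightest on average over the arrays was taken. The probe of Cdhr1 and that of Doc2g were well above background on all 61 arrays, that of Tbx21 on 60, that of Sp8 on 55, that of Eomes on 53 and that of Col24a1 on 18, so that all 6 passed the filter of at least 1 array. A second probe was present for Doc2g, well above background on 61 arrays, and for Col24a1, well above background on 1.

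The arrays came from 6 whole brains of 8-week-old male C57BL/6J mice, an inbred strain, with no transgene or treatment named in the labels. Each brain was cut throughout in 5 µm slices, and 200 successive slices were collected into a fraction of 1 mm, so that a fraction is a slab of brain and not a dissected region. The S and So mice were cut sagittally from left to right (9 and 10 fractions), the C and Co mice coronally from caudal to rostral (13 and 16) and the H and Ho mice horizontally from dorsal to ventral (6 and 7), with So, Co and Ho cut at a slightly oblique angle. The labels number the 9 S fractions from 2 to 10, and they are called S1 to S9 here in the same order. The study matched 56 of the fractions into 28 pairs, 1 fraction from each mouse of a plane, which are named c1 to c13, s1 to s9 and h1 to h6 here, and Co1, Co13, Co16, So1 and Ho1 had no partner. With 1 mouse per series, the 2 fractions of a pair are the replicates. A p-value rests on the spread within pairs, pooled in 1 fit over the 28 pairs of all planes. A call in 1 plane can therefore change when an array of another plane is left out. The fit counts the fractions of 1 mouse as independent, although their deviations from the pair means were correlated. The arrays differed in their signal, with a 75th percentile of 739.7 to 1971.3 units, between 57.91 and 73.1% of the probes were well above background, and the arrays lay on 16 slides read on 5 scan days.

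All values below are log2 intensities of 1 probe relative to the 75th percentile of its array, and they compare fractions for that probe only. In a slab of tissue, fewer cells of a type and less RNA per cell cannot be told apart.

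All 6 genes matched a promoter entry of RefSeq (GRCm38.p6). The 250 bases before the annotated start are shown for the 2 genes with the most similar profiles, Tbx21 and Doc2g, for Cdhr1 and for Eomes, the only member called higher in the caudal coronal pairs. A total of 3 motifs of 6 bases were searched on both strands, the T-box core GGTGTG, the GC box GGGCGG and the TATA motif TATAAA, and capitals mark every match, in the reverse complement where the match lies on the other strand. Matches of GC boxes overlap in the Tbx21 promoter.
Tbx21, chr11:97115332-97115581, minus strand: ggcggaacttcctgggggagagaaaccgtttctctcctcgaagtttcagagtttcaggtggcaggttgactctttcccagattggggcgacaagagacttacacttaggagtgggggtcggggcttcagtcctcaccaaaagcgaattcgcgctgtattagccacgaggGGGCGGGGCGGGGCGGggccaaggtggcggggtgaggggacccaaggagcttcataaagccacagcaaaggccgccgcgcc
Doc2g, chr19:4003135-4003384, plus strand: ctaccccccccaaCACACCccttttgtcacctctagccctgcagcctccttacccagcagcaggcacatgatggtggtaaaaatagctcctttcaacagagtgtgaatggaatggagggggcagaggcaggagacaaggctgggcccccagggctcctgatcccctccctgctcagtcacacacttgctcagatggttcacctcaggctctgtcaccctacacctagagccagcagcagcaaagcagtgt
Cdhr1, chr14:37098348-37098597, minus strand: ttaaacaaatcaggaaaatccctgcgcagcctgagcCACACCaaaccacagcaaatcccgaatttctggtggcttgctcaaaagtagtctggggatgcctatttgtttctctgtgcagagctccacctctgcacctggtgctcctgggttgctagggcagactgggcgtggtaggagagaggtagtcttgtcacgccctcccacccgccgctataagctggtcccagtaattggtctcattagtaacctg
Eomes, chr9:118477939-118478188, plus strand: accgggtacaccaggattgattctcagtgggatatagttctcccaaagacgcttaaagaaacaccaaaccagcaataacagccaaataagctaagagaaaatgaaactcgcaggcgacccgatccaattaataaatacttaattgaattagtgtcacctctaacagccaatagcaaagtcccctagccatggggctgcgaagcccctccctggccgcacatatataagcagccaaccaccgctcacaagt
Tbx21 held 3 GC boxes between bases -81 and -66 from the start and no T-box core. Doc2g and Cdhr1 each held 1 T-box core, at bases -237 to -232 and -214 to -209, and Col24a1, not shown, held 1 at bases -25 to -20. Sp8 had 3 entries for different starts, not shown, of which 1 held a T-box core at bases -69 to -64 and 2 TATA motifs, 1 held a GC box and 1 held none. Eomes held none of the 3 motifs in this window. Over 32851 promoter entries of the same length, 16.3% held the T-box core, 32.7% the GC box and 12.4% the TATA motif. The GC content was 60.8% for Tbx21, 57.6% for Doc2g, 53.2% for Cdhr1 and 46.4% for Eomes, beside a median of 52.4% over all entries, and the Doc2g window held 0 CpG sites against 16 for Tbx21 and a median of 6.

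All 6 members varied over the 28 pairs of fractions, and 61.3% of the 36573 probes tested did. The moderated F of limma was 19.2 for Tbx21 (adjusted p = 5.73e-11), 18.5 for Doc2g (8.34e-11), 15.9 for Cdhr1 (4.89e-10), 15.6 for Sp8 (5.83e-10), 8.27 for Col24a1 (6.24e-07) and 7.39 for Eomes (1.97e-06), with Benjamini-Hochberg adjustment over all probes. In the C mouse every member except Sp8 was highest in C13, and Sp8 was highest in C12. In the Co mouse every member except Col24a1 was highest in Co15, the partner of C13, and Col24a1 was highest in Co16. Between the lowest and the highest coronal fraction the intensity of Tbx21 spanned 586-fold in the C mouse and 504-fold in the Co mouse, and that of Cdhr1 549-fold and 409-fold. The lowest C fraction of Tbx21, C4, was not well above background, so that its span in the C mouse is taken against a value at background.

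**Figure D1:**
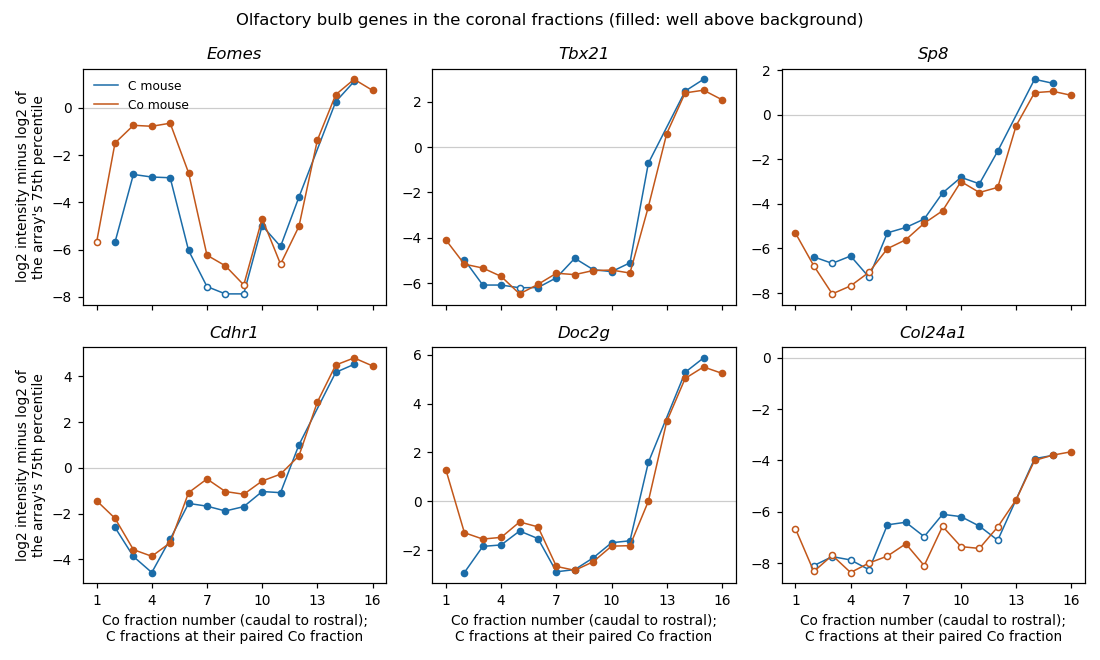
Log2 intensity relative to the 75th percentile of the array (y axis) of the 6 members in the coronal fractions of the C mouse (blue) and the Co mouse (orange), by Co fraction number from caudal to rostral (x axis), with C fractions placed at their partner. Open circles are arrays on which the probe was not well above background. All members were high from Co14 on, and Eomes had a second maximum between Co2 and Co5, at -1.49 to -0.65.

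The rostral pairs c12 and c13 were compared with the pairs c1 to c11 to measure how far the members were concentrated in the part of the coronal series that holds the olfactory bulb. All 6 members were higher in the rostral pairs, by 10.9-fold for Col24a1 to 232-fold for Tbx21, and for each of them all 4 rostral fractions lay above all 22 others. The fold of Col24a1 is taken mostly against values at background, since it was well above background in 6 of these 22. Of all probes tested, 17.8% were higher and 20.6% lower in the rostral pairs.

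Among the transcription factors, Tbx21 was at 2.47 in C12, 2.99 in C13, 2.39 in Co14 and 2.51 in Co15. In the 22 other fractions it was at -6.47 to -0.71, with a median of -5.52, and well above background in 21 of them. The groups did not overlap, and the difference was 7.86 on the log2 scale (SE 0.45, adjusted p = 6.99e-15, limma). Sp8 was at 1.59, 1.41, 0.99 and 1.05 in C12, C13, Co14 and Co15. In the other fractions Sp8 was at -8.04 to -1.63, with a median of -5.18, and well above background in 16 of 22. Again no fraction overlapped, and Sp8 was 84.0-fold higher in the rostral pairs (6.39, SE 0.44, adjusted p = 4.29e-13). Eomes was at 0.26, 1.12, 0.56 and 1.21 in the same 4 fractions. Its values elsewhere were -7.88 to -0.65, with a median of -5.01, well above background in 17 of 22 fractions, and the highest of them was Co5 near the caudal end. The rostral difference of Eomes was 5.41 (SE 0.61, adjusted p = 1.56e-08).

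Cdhr1, the adhesion molecule, was at 4.18 in C12, 4.53 in C13, 4.50 in Co14 and 4.81 in Co15. Its other coronal fractions were at -4.57 to 1.01, with a median of -1.61, and it was well above background in all of them. The rostral fractions stood above the highest of these, C11, and the difference was 6.28 (SE 0.39, adjusted p = 4.59e-14). Doc2g, a relative of calcium sensors of vesicle release, was at 5.28, 5.87, 5.03 and 5.50 in C12, C13, Co14 and Co15. Its other fractions were at -2.92 to 1.59, with a median of -1.74. Its difference of 7.10 (SE 0.40, adjusted p = 4.72e-15) was the same size with its second probe, at 7.13. Col24a1 was at -3.93, -3.80, -4.00 and -3.79 in the 4 rostral fractions and at -8.37 to -6.10 in the others, where it was well above background in 6 of 22. Its groups did not overlap either, and the difference was 3.45 (SE 0.27, adjusted p = 9.31e-12). The second probe of Col24a1 gave a difference of -0.23 (adjusted p = 0.674). Under normexp background correction, which adds an offset of 50 to the intensities, the rostral differences were 6.80 for Doc2g, 5.89 for Cdhr1, 5.85 for Tbx21, 4.52 for Sp8, 3.52 for Eomes and 0.84 for Col24a1, all past the threshold.

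The differences had the same direction in both mice and were least alike for Eomes. Tbx21 was 7.90 higher in the C mouse and 7.81 in the Co mouse, Sp8 6.30 and 6.49, Cdhr1 6.36 and 6.20, Doc2g 7.31 and 6.89, Col24a1 3.21 and 3.69, and Eomes 6.00 and 4.81. C13 was read on another scan day than C1 to C12. Without it, within 1 scan day, the C mouse gave 7.64 for Tbx21, 6.39 for Sp8 and 5.58 for Eomes. C12 shared a slide with C9 to C11 and exceeded them on that slide by 6.24 for Tbx21, 5.86 for Doc2g, 5.15 for Eomes, 4.55 for Cdhr1, 4.11 for Sp8 and 2.69 for Col24a1.

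For Tbx21 and Doc2g the rise began in c11, the last pair before the rostral ones, and their steps from c10 to c11 were the largest of the members. From C10 to C11 Cdhr1 and Eomes also rose, by 2.09 each, and Sp8 by 1.47. From Co11 to Co12 the steps of Cdhr1, Eomes and Sp8 were 0.80, 1.60 and 0.23, with Eomes not well above background in Co11. From C10 to C11 Tbx21 rose by 4.39 and Doc2g by 3.21, and from C11 to C12 Tbx21 rose by 3.18, whereas Col24a1 was at -6.56 in C10, -7.11 in C11, where it was not well above background, and -3.93 in C12. In the Co mouse Tbx21 was at -5.55 in Co11, -2.63 in Co12, 0.60 in Co13 and 2.39 in Co14. Sp8 was already higher in C9 (-2.81) than in C5 (-5.30) and in Co10 (-3.00) than in Co6 (-6.01). It then was at -3.10 in C10, at -3.49 in Co11 and at -3.26 in Co12, before -0.49 in Co13. C12 and C13, 15.4% of the C fractions, held 94.6% of the summed scaled intensity of Doc2g in that mouse, 94.2% of that of Tbx21, 90.0% for Cdhr1, 87.6% for Sp8, 85.5% for Eomes and 59.7% for Col24a1. Co13 to Co16, 25.0% of the Co fractions, held between 70.5% (Eomes) and 97.5% (Tbx21). The shares of Col24a1 rest in part on values at background, since it was well above background in 7 of 13 C and 5 of 16 Co fractions.

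By the size of the rostral difference Tbx21 ranked 2nd among 15520 detected genes, Doc2g 3rd, Sp8 6th, Cdhr1 9th, Eomes 19th and Col24a1 71st. These ranks are no test of the members, which were chosen with earlier results of these data known. The other genes of the first 10 were S100a5, a calcium-binding protein, with a difference of 12.46, the calcium-binding protein gene Scgn at 7.09, Nppa, which encodes a natriuretic peptide, at 6.32, Ell3 at 6.29, and Clca3a1 and Clca3a2 at 6.65 and 6.28. In the 22 other coronal fractions, Nppa was well above background in 22, Clca3a2 in 14, Scgn and Clca3a1 in 13, S100a5 in 4 and Ell3 in 1, so that all of these differences but that of Nppa are in part taken against values at background.

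The caudal pairs c1 to c3, which hold the cerebellum and hindbrain, were compared with the middle pairs c5 to c11, since Eomes is known from the cerebellum. Only Eomes among the members was called higher in the caudal pairs. Sp8, Cdhr1 and Col24a1 were lower, and Tbx21 (-0.57, adjusted p = 0.256) and Doc2g (-0.10, adjusted p = 0.837) passed the test in neither direction. Doc2g was not flat there, since the middle pairs hold c11, at 1.59 in C11. It was at -2.92 in C1, at -1.85 to -1.22 in C2 to C5 and at -2.89 to -2.32 in C6 to C8. In the Co mouse Doc2g was at -1.55 to -0.85 in Co2 to Co6 and at -2.83 to -2.48 in Co7 to Co9. These ranges were not compared by a test. Of all probes, 28.9% were higher and 19.7% lower in the caudal pairs, so that 1 higher member of 6 is no larger a share than among probes in general.

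Eomes was at -5.69 in C1, -2.82 in C2 and -2.93 in C3, and at -1.49, -0.74 and -0.78 in Co2, Co3 and Co4. In the 14 middle fractions it was at -7.88 to -2.75, with a median of -6.14, and well above background in 9. The 3 Co fractions lay above all middle fractions, C2 and C3 lay just under the highest of them, Co6, and C1 lay inside the middle range. Eomes was 11.8-fold higher in the caudal pairs (3.56, SE 0.55, adjusted p = 2.78e-06), by 2.47 in the C mouse and 4.64 in the Co mouse. Leaving out C1 gave 4.26 and leaving out Co2 gave 2.86. The Co mouse exceeded the C mouse by 2.17 in this difference (SE 0.84), which did not pass the test of the difference itself (adjusted p = 0.124, limma on the differences within pairs, where 7.27% of the probes were called). The rise also held the pair c4, at -2.96 in C4 and -0.65 in Co5, and was over by Co7 at -6.24.

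Cdhr1 was at -2.60, -3.87 and -4.57 in C1 to C3 and at -2.20, -3.57 and -3.86 in Co2 to Co4. Its middle fractions were at -1.88 to 1.01, all above the caudal ones, and the difference was -2.59 (SE 0.35, adjusted p = 3.13e-07). Sp8 was at -8.04 to -6.34 in the caudal fractions, well above background in 2 of 6, and at -6.01 to -1.63 in the middle fractions. Its groups did not overlap, with a fitted difference of -2.93 (SE 0.40, adjusted p = 2.72e-07) that is taken mostly against values at background. Col24a1 was well above background in 0 of the 6 caudal and 6 of the 14 middle fractions, so that no fold is given for it. Its test passed (-1.10, adjusted p = 0.000412) but not with the slide as a random block (-0.90, adjusted p = 0.0516), with the slide as a fixed block (-0.03, adjusted p = 0.993) or with fractions paired by their own number (-0.72, adjusted p = 0.113). Under normexp the caudal differences were 1.56 for Eomes, -0.93 for Sp8, -1.93 for Cdhr1 and -0.13 for Col24a1, all past the threshold.

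No slide held both caudal and middle pairs, so that slide and position cannot be told apart within a slide. With the slide as a random block Eomes was 3.56 higher (adjusted p = 0.000254), and a fixed block for slide, which rests on the offset of the slides between the mice, left Eomes 3.25 higher (adjusted p = 0.214), and 0 of the 6 members passed the test.

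**Figure D2:**
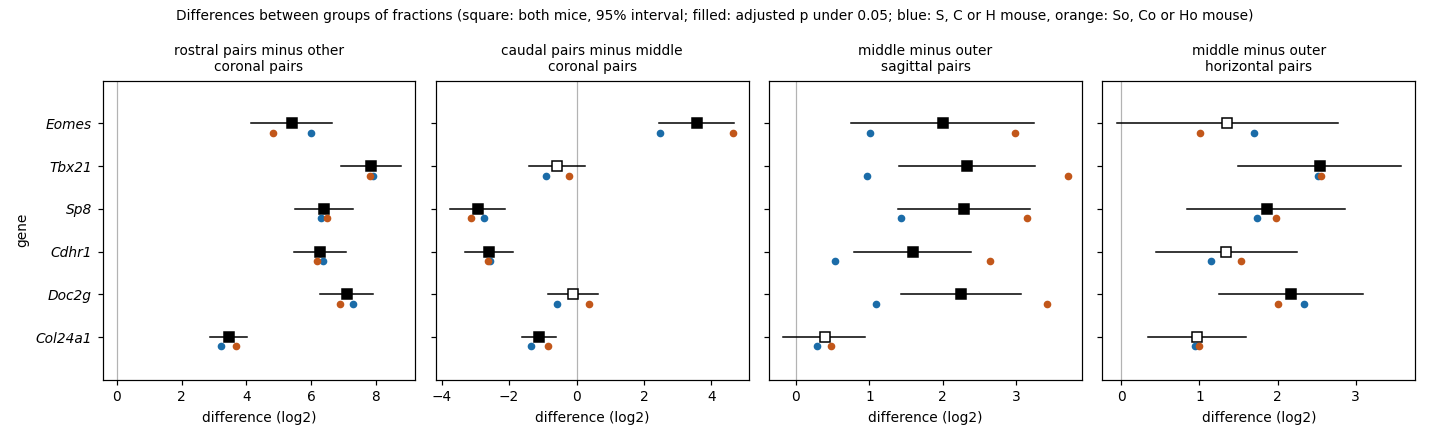
Differences of log2 intensity between groups of fractions (x axis) for each member (y axis) in 4 comparisons. Squares are the estimates over both mice with their 95% confidence intervals, filled where the adjusted p was under 0.05, blue points the S, C or H mouse alone and orange points the So, Co or Ho mouse alone. All 6 rostral differences were above 3, only Eomes was called higher at the caudal end, and the sagittal differences were larger in the So mouse than in the S mouse. Col24a1 was not well above background in any sagittal fraction.

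Other genes of the bulb rose with the members in the rostral pairs. Of 8 neuroblast genes, all 8 were higher, with a median of 3.80, among them the microtubule protein gene Dcx (3.68) and the homeobox genes Dlx1 (5.63) and Dlx2 (5.69). Of 12 interneuron genes tested, 11 were higher and 0 lower, with a median of 2.52, such as Th, the enzyme of dopamine synthesis (4.10), and the calcium-binding protein gene Calb2 (1.99). Of 5 genes of the olfactory nerve layer, 4 were higher, including Omp, the marker of mature olfactory receptor neurons (5.41). Of 7 further mitral and tufted cell genes tested, 4 were higher and 2 lower, with a median of 0.80. Reln, an extracellular glycoprotein of these cells, was 1.13 higher, and Slc17a6 and Lhx5 had differences of -1.55 and -2.45. All 6 members had larger rostral differences than any of these 7 genes, and the median over all probes was -0.04. Members and lists were chosen with earlier results of these data known, so that this order is a description and no test.

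In a sum of scaled intensities over a list the brightest probes count most. In the nerve layer list, Fabp7 was at 6.86 in C13 and Omp at -0.01. The summed scaled intensity of the neuroblast genes was 19.4 to 21.2 in the rostral fractions and 1.24 to 4.36 in the others, that of the interneuron genes 117 to 138 and 25.6 to 47.6, and that of the olfactory nerve layer genes 57.9 to 137 and 7.52 to 14.6. That of the mitral and tufted cell genes was 59.5 to 73.1 in the rostral fractions, inside the range of 34.1 to 77.8 of the others. That of the cortical projection neuron genes was 3.21 to 4.06 in the rostral fractions, inside the range of 0.593 to 9.19 of the others, and 1 of its 6 genes was higher and 2 were lower. All 5 cerebellar granule and Purkinje cell genes tested were lower. The part of these cells in the rostral differences of the members was not tested.

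At the caudal end, Eomes rose together with the 3 measured genes of unipolar brush cells, among them Plcb4 (1.60) and Calb2 (2.22), which is also one of the bulb interneuron genes, and with all 5 granule and Purkinje cell genes, among them the receptor subunit gene Gabra6 (5.96) and Pcp2 (4.50). The remaining gene of that list, Lmx1a, was well above background in 0 of the 6 caudal fractions and on 1 array of 61, so that its value is not read as a level. The summed scaled intensity of the unipolar brush cell genes was 7.75 to 26.9 in the caudal fractions and 2.35 to 10.3 in the middle ones, and that of the granule and Purkinje cell genes 33.3 to 161 and 27.4 to 53.8. Of the neuroblast genes 1 was higher and 7 were lower there, and of the cortical projection neuron genes all 6 were lower. Of the 7 mitral and tufted cell genes tested, 5 were higher and 2 lower in the caudal pairs, with a median of 1.01. The higher ones included Lhx5 (3.06) and Reln (1.04). Of the 2 lower ones, Tbr1, a T-box transcription factor of cortical and mitral cells related to Eomes, was well above background in all 14 middle and 0 of the 6 caudal fractions. It was at least 122-fold lower in the caudal ones, counting those at the lowest signal well above background. The part of these cells in the caudal difference of Eomes was not tested.

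**Figure D3:**
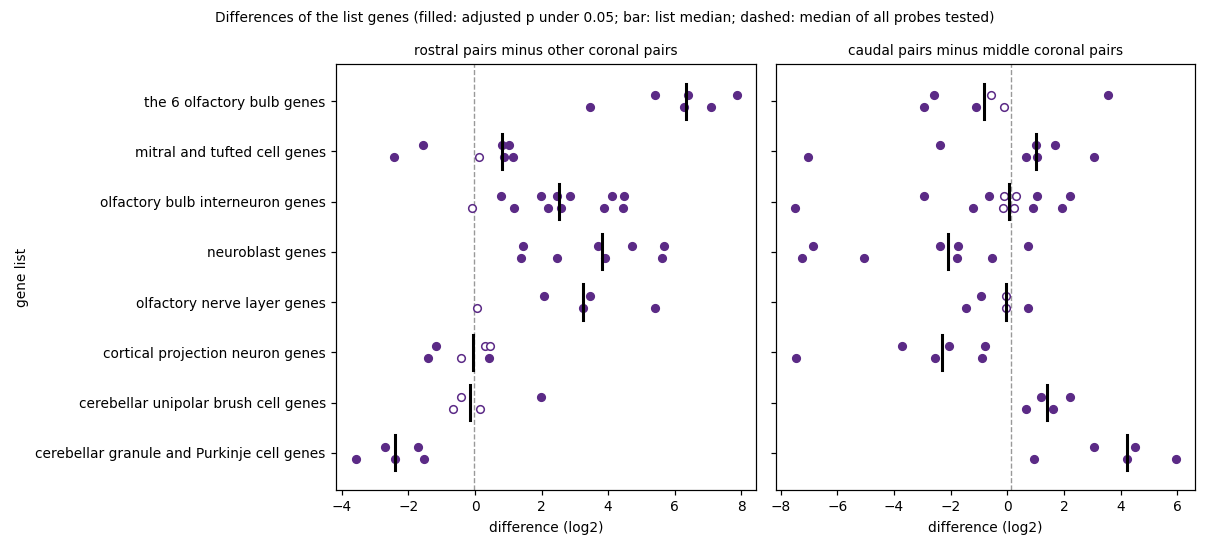
Log2 differences (x axis) of the members and of the genes of 7 lists (y axis) between the rostral and the other coronal pairs (left) and between the caudal and the middle coronal pairs (right). Filled points passed an adjusted p of 0.05, bars are list medians and the dashed line is the median of all probes tested. The rostral median was 6.34 for the members and 3.80 for the neuroblast genes, and the largest caudal median, 4.21, was that of the granule and Purkinje cell genes. Of the 4 unipolar brush cell genes shown at the right, Lmx1a was not well above background in any caudal fraction.

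Across the sagittal series, 5 of the 6 members were higher in the middle pairs s4 to s6 than in the outer pairs s1, s2, s8 and s9, beside 10.6% of all probes. Tbx21 was at -3.10 in S4, -1.33 in S5, -0.72 in S6, 0.24 in So5, 0.03 in So6 and -0.22 in So7. In the 8 outer fractions it was at -4.59 to -0.89, with a median of -3.60. The groups overlapped through S4 and S8, and the difference was 2.33 (SE 0.45, adjusted p = 0.000231). The difference was 2.29 for Sp8 (SE 0.44, adjusted p = 0.000217), 2.25 for Doc2g (SE 0.40, adjusted p = 8.03e-05), 1.59 for Cdhr1 (SE 0.39, adjusted p = 0.00314) and 2.00 for Eomes (SE 0.61, adjusted p = 0.0180). The call of Eomes was lost without any 1 of S6, So2, So3, So5 or So9, at adjusted p values of 0.0559 to 0.0643. Col24a1 was not well above background in any sagittal fraction.

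Leaving aside Col24a1, each member was highest in fractions of the 2 mice that are not partners. The cause was not tested. In the So mouse Doc2g was at -2.37 in So3, at 1.52, 2.16, 2.45 and 1.86 in So4 to So7 and at -0.56 in So8, a block with sharp edges in the middle of 10 fractions. In the S mouse it rose from -1.24 in S1 to 1.86 in S7, stayed at 1.74 in S8 and was at 0.25 in S9. Tbx21 and Sp8 were likewise highest in S7 and in So5, fractions that are not partners. The difference between middle and outer fractions of Tbx21 was 0.97 in the S mouse and 3.70 in the So mouse, and that of Cdhr1 0.53 and 2.64. The test of the difference between the mice passed for 0 of the 6 members (lowest adjusted p = 0.683, limma, beside 0.0082% of all probes called), and 5 of them had an unadjusted p under 0.05. On slides that held both groups, the difference of Doc2g was 1.73 and 0.79 in the S mouse and 4.68 and 2.24 in the So mouse, and that of Eomes -0.05 and 1.37 in the S mouse and 2.67 and 1.80 in the So mouse.

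Across the horizontal series, 3 of the 6 members, Tbx21, Doc2g and Sp8, were higher in the middle pairs h3 and h4 than in the outer pairs h1, h2, h5 and h6, beside 1.43% of all probes. Doc2g was at 1.75 in H3, 2.31 in H4, 1.55 in Ho4 and 2.27 in Ho5. In the outer fractions it was at -2.89 to 2.21, with the 4 dorsal fractions H1, H2, Ho2 and Ho3 at -2.89 to -1.58 and the 4 ventral ones at 1.15 to 2.21. The ventral fractions overlapped with the middle ones and the dorsal fractions did not. The differences were 2.54 for Tbx21 (SE 0.51, adjusted p = 0.00458), 2.17 for Doc2g (SE 0.45, adjusted p = 0.00673) and 1.86 for Sp8 (SE 0.50, adjusted p = 0.0454), and 1.35 for Eomes (SE 0.69, adjusted p = 0.493), 1.34 for Cdhr1 (SE 0.44, adjusted p = 0.135) and 0.97 for Col24a1 (SE 0.31, adjusted p = 0.113). For Eomes the 4 middle fractions, at -1.32 to -0.97, lay above all outer ones, at -4.14 to -1.47. The call of Sp8 was lost when any 1 of 40 of the 56 paired arrays was left out. With the slide as a fixed block Tbx21 was 2.56 higher (adjusted p = 0.0532), and 0 of the 6 members passed. Col24a1 was called with the mouse as a replicate block (0.97, adjusted p = 0.0353). On the slide of Ho1 to Ho4 the difference of Tbx21 was 3.81, on that of Ho5 to Ho7 1.31 and on that of H3 to H6 0.94. Of the members, 4 were highest in H4 and its partner Ho5 in both mice, Tbx21, Sp8, Cdhr1 and Doc2g, and Eomes was highest in H3 and its partner Ho4.

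**Figure D4:**
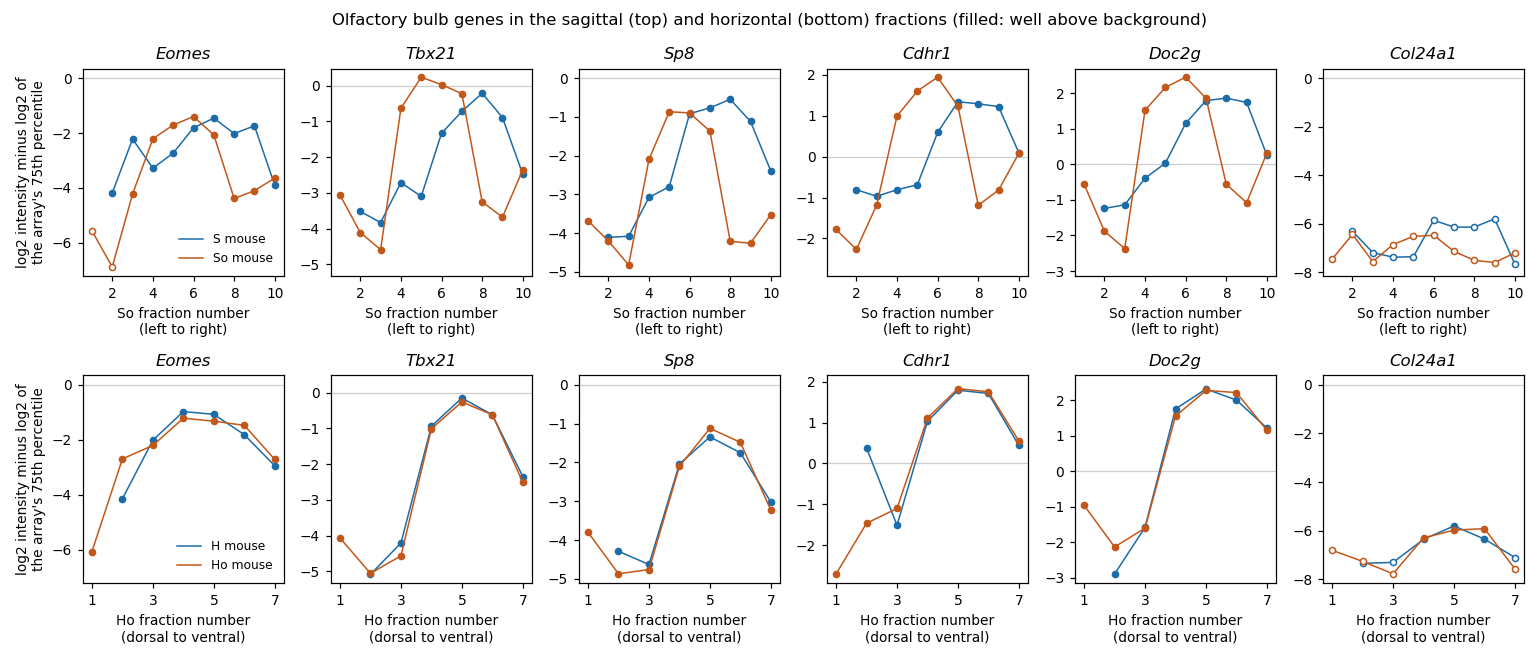
Log2 intensity relative to the 75th percentile of the array (y axis) of the 6 members by So fraction number from left to right (top) and by Ho fraction number from dorsal to ventral (bottom), with S and H fractions (blue) placed at their partner. Open circles are arrays on which the probe was not well above background. Tbx21, Sp8, Cdhr1 and Doc2g were high from So4 to So7 in the So mouse (orange) and from S5 to S8 in the S mouse, and their H and Ho values ran together from H3 on. Col24a1 was not well above background in any sagittal fraction.

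Between the mice of a plane, 1 of the 6 members differed, Eomes (F = 4.31, adjusted p = 0.0230, limma), beside 63.1% of all probes. Eomes was 1.20 higher in the Co than in the C mouse over their pairs (SE 0.39), -0.81 in So minus S (SE 0.46) and 0.22 in Ho minus H (SE 0.57). The call was lost without C5 or its partner Co6 (adjusted p = 0.0506), with the slide as a random block (F = 2.58, adjusted p = 0.177) and with fractions paired by their own number (adjusted p = 0.575). Sp8 (adjusted p = 0.0739) and Col24a1 (adjusted p = 0.0720) were near the threshold, and both passed it without S3, S4 or their partners, and Col24a1 also without S9, C11 or their partners. Tbx21, with an adjusted p of 0.950, differed by -0.20 in Co minus C (SE 0.34). The C and Co mice were read on different scan days, so that mouse and scan day cannot be told apart.

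Over the 61 fractions the profiles of Tbx21 and Doc2g were most like each other, with a Pearson correlation of 0.949 between their log2 intensities, and each was first for the other among 15519 detected genes. After Doc2g, S100a5 (0.938) and Nppa (0.937) were most like Tbx21. Most like Doc2g after Tbx21 were Klhl30 (0.948) and Nmb, a neuropeptide gene (0.934). Sp8 was most like the neuroblast gene Dcx (0.948), then Cdhr1 (0.930) and Otop2 (0.928). Cdhr1 was most like Scgn (0.940), Dcx (0.939) and Ptpro (0.936), and Col24a1 most like Cdca7 (0.875), Dcx (0.875) and Gng4 (0.871).

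Eomes stood apart from the other members. It was most like Nlrp10 (0.885), Trmt9b (0.848) and Ltbp2 (0.846), and its correlation with the other members was 0.413 (Col24a1) to 0.745 (Doc2g). Without C11 to C13 and Co12 to Co16, over 53 fractions, Tbx21 and Doc2g correlated at 0.909, Sp8 and Cdhr1 at 0.892 and Tbx21 and Sp8 at 0.860, while Eomes and Sp8 were at 0.217 and Eomes and Col24a1 at -0.001. The sagittal and horizontal fractions, which come from whole brains with their bulbs, stayed in. These values therefore do not show how alike the members are outside the bulb. These correlations describe the fractions and carry no test, since neighboring fractions share tissue, slides and a brain and all fractions of a plane cover the same regions.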

How the data were processed

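Total RNA of each of the 61 fractions was labeled with 1 dye and measured on a separate whole mouse genome array of Agilent (design 014868). The authors deposited, per the file headers, the intensity of each spot from Feature Extraction 9.1.3.1 (9.1 in the submitters' processing notes), with background subtracted by that software, and a table of intensities normalized per array, used as an alternative. Of the value columns 0 were left unused. Here, the processed signals were put on the log2 scale, their means taken for 41174 probes with outlier-flagged spots left out, and these reduced by the 75th percentile of the array. RefSeq accessions named 22951 probes. The 36573 probes with a spot well above background on at least 1 array were tested with limma 3.58.1 in R 4.3.3, by a moderated F over the 28 pairs (27 and 28 degrees of freedom), contrasts of pairs, and a model with pair and mouse for the mice, with Benjamini-Hochberg adjustment at 0.05. The study's methods name a one-way ANOVA over the same pairs, which was an alternative. The SD between spots of a probe was 0.0637 (log2, median), which leaves out the spread between arrays, whose number limits the precision. With the slide as a random block, the estimated correlation within a slide was 0.540.

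The members and gene lists were chosen with earlier results of these data known. Genes named were the members, the list genes, the 3 genes most like each member by Pearson correlation over 61 fractions, and the 10 largest rostral differences at an adjusted p under 0.05. On simulated data for 36573 probes with 200 changed, 69.5% of the changes of 1 (log2) and 92% of those of 2 were recovered in the rostral contrast, with 11 and 14 false calls, and 35% and 68.5% in the F over the pairs, with 6 and 11 false calls. The simulated noise was independent between arrays, without the correlation within a mouse or a slide. These rates therefore do not carry over to the real arrays. The replicate block is the mouse, which the fractions of a series share: in 129 combinations of fractions from 1 mouse, the correlation of the deviations from the pair means had a median of 0.278 and was above 0.1 in 115. Alternatives were the scaling, the authors' table, normexp with an offset of 50 and quantile normalization on the median signal, filters, a floor of 5, blocks, other pairings, other probes, other groups of fractions, an adjusted p of 0.01 and leaving out each array. The tests of differences between the mice in a contrast, the values of each mouse alone and those within a slide or scan day were added after seeing the data. Python 3.11.15 with pandas 2.3.3 and matplotlib 3.10.9 served for correlations and figures.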

Additional observations from a re-analysis of the deposited data

How the results depend on the processing

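The 6 calls over the pairs and the 6 rostral calls were kept under scaling to the median, the authors' table, normexp, the floor, all probes, every block, an adjusted p of 0.01, pairing by own number and each array left out (6 to 6 members), and when c13 alone or c11 to c13 stood for the rostral end. With probes well above background on all arrays, 2 members could be tested, Cdhr1 and Doc2g, and the calls were 2 over the pairs, 2 rostral, 1 caudal, 2 sagittal, 1 horizontal and 0 between the mice. Under normexp, which raises low intensities by its offset, the calls were the same except for the horizontal one of Sp8 (1.21), and differences of dim probes shrank, as for Col24a1 from 3.45 to 0.84 rostral. With the second probes of Doc2g and Col24a1, 5 rostral and 3 caudal calls were made. With the mouse as a replicate block, which pairs fractions through their mouse, the horizontal calls went from 3 to 4 and no other count changed. With the slide as a fixed block 0 members were called in the caudal and 0 in the horizontal comparison, and with the slide as a random block 5 in the horizontal comparison and 0 between the mice. Pairing by own number gave 3 sagittal and 0 horizontal calls, and h3 alone gave 0 horizontal calls, although the direction of the called members was kept. At an adjusted p of 0.01, 0 members differed between the mice. Leaving out 1 array gave 4 to 4 caudal, 4 to 5 sagittal and 2 to 3 horizontal calls and 0 to 3 between the mice, and Sp8 lost its horizontal call without 40 of 56 arrays. Directions turned for the second probe of Col24a1 (-0.23 rostral, 0.40 caudal, -0.39 horizontal), which was well above background on 1 array, for the uncalled caudal difference of Doc2g (0.42 with pairing by own number, 0.16 with c1 to c4 against c6 to c11, -0.37 to 0.17 with 1 array left out) and for Eomes on the slide of S2 to S5 (-0.05). The causes were not tested. For the test between the mice, slide and scan day as fixed blocks were not run. Over the other settings, 510 of 576 combinations of a member and a setting kept direction and call or, for values with no test, moved by less than the spread between the mice. This count includes combinations that could not change. The other-probe setting repeats the main result for genes with 1 probe. Each mouse alone, set against the mean of both mice, cannot move beyond the spread between them. The count is therefore no measure of robustness.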

Other observations

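The first fractions Co1, So1 and Ho1 of the 3 obliquely cut brains have no partner and entered no test. Doc2g was at 1.27 in Co1 and -1.29 in the next fraction, Co2, at -0.56 in So1 and -1.88 in So2, and at -0.96 in Ho1 and -2.13 in Ho2. Tbx21 was likewise higher in these first fractions than in the next, by 1.05, 1.05 and 0.99 on the log2 scale, Sp8 by 1.47, 0.52 and 1.07, and S100a5, the gene with the largest rostral difference, by 3.18, 4.10 and 4.27. Cdhr1 differed by 0.77, 0.49 and -1.23. Eomes was at -5.69 and not well above background in Co1, beside -1.49 in Co2, was not well above background in So1 or So2, and was at -6.06 in Ho1 beside -2.69 in Ho2. In the other 3 brains the signs differed between members and brains. In C1, S1 and H1 against the next fraction, Doc2g differed by -1.07, -0.11 and -1.32, Tbx21 by 1.11, 0.30 and -0.88, Sp8 by 0.29, -0.03 and 0.34, Cdhr1 by 1.26, 0.15 and 1.89, and S100a5 by 0.99, 1.00 and -2.18. The last fraction of the So mouse, So10, has a partner and was also higher than its neighbor So9. Its differences were 1.40 for Doc2g, 1.32 for Tbx21, 0.74 for Sp8, 0.91 for Cdhr1 and 2.46 for S100a5. The last fractions S9, H6 and Ho7 were lower than their neighbors for these genes. The difference between oblique and other brains was not tested.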
